A study of Arabidopsis thaliana with 6 samples.

Results

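The step described here is the second hour of renewed light in the Arabidopsis thaliana flu mutant, that is the array of flu leaves at 2 h set against the array of flu leaves at 60 min. These are 2 of the 6 arrays of the study, chosen by their titles. The study measured transcripts in rosette leaves of the flu mutant (genotype flu1-1) and of its wild type Ler, both in the ecotype Landsberg erecta, on Affymetrix ATH1 arrays. Plants of 3 weeks, grown on soil in continuous light, were kept in darkness for 8 h and sampled after 30 min, 60 min or 2 h of light. The groups used are thus flu at 2 h and flu at 60 min, and, on other arrays, flu at 30 min and Ler at 2 h, 60 min and 30 min. Every group went through the same dark period, and none of the 6 arrays is of leaves still in the dark. Each array holds leaf RNA of 5 to 6 plants per experiment and of 2 experiments pooled before labelling, so each group is 1 array and no difference has a replicate check or a p-value. All values below are sizes and counts, and the number of arrays limits their precision.

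FLU is a plastid protein that restrains the first step of tetrapyrrole synthesis in the dark. Without it the chlorophyll precursor protochlorophyllide accumulates in darkness, and on return to light this pigment passes energy to oxygen, which gives singlet oxygen inside the plastids. Leaves answer this with rapid changes of nuclear transcripts, among which are genes of defence, of hormone synthesis and of detoxification. Heat shock proteins, which are chaperones that bind unfolded proteins, glycosyltransferases and glutathione S-transferases, which attach sugars or glutathione to reactive compounds, and alternative respiratory enzymes of the mitochondrion are known members of later stress responses in plants.

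A difference is the value at 2 h minus that at 60 min of log2(signal + 50), where the signal is the deposited brightness of a probe set after all arrays were brought to the same trimmed mean. A probe set was compared if its highest signal over the 6 arrays was 185 or more. The nearest probe set inside this limit had 185.02 and the nearest outside 184.97. Of 22810 probe sets 13062 were compared, and 6927 of these belong to 1 named gene, for 6865 genes in all. A probe set is counted as higher or lower from a 2-fold difference on this scale. The labelled tissue could be checked with few markers. Of 13 mesophyll markers 4 had a named probe set, and their summed signal was 43862 in flu at 2 h and 50974 in flu at 60 min, with 60445 to 68520 in Ler, while PAP85, the 1 named marker of 6 for flower, pollen and seed, had 34.5 and 80.8, and 0 of 4 root markers were named. The part of these differences in the results was not tested. Control probe sets at both ends of a transcript gave 3′ to 5′ ratios of 6.08 at 2 h and 4.62 at 60 min for actin. Both lay within the 3.38 to 7.05 of the other arrays. For GAPDH the ratios were 0.806 at 2 h and 0.914 at 60 min, beside 0.8449 to 0.9875 on the other arrays. The GAPDH ratio at 2 h was thus the lowest of the 6 arrays. Since whole leaves were used, fewer cells of a type and less RNA per cell cannot be told apart.

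During the second hour of light 572 probe sets were higher in flu (4.38% of those compared) and 240 were lower (1.84%). Over the same hour 52 were higher (0.398%) and 131 lower (1.00%) in Ler. Higher probe sets were 70.4% of those past 2-fold in flu, and 80.7% once the median difference of all probe sets, -0.11 in flu, was subtracted. At a limit of 1.5-fold they were 48.9%, with 1151 higher and 1205 lower. Large changes were mostly increases, since 151 probe sets were at least 4-fold higher and 5 at least 4-fold lower, and 32 against 0 reached 8-fold. Of the 572 higher probe sets 189 (33.0%) started from a signal under 185 at 60 min, and 153 reached 185 on the flu array of 2 h alone, so that they entered the comparison through the array where they were high. Of the 240 lower probe sets 42.1% ended under 185 at 2 h. The plot of flu at 2 h against flu at 60 min shows this spread.

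**Figure D1:**
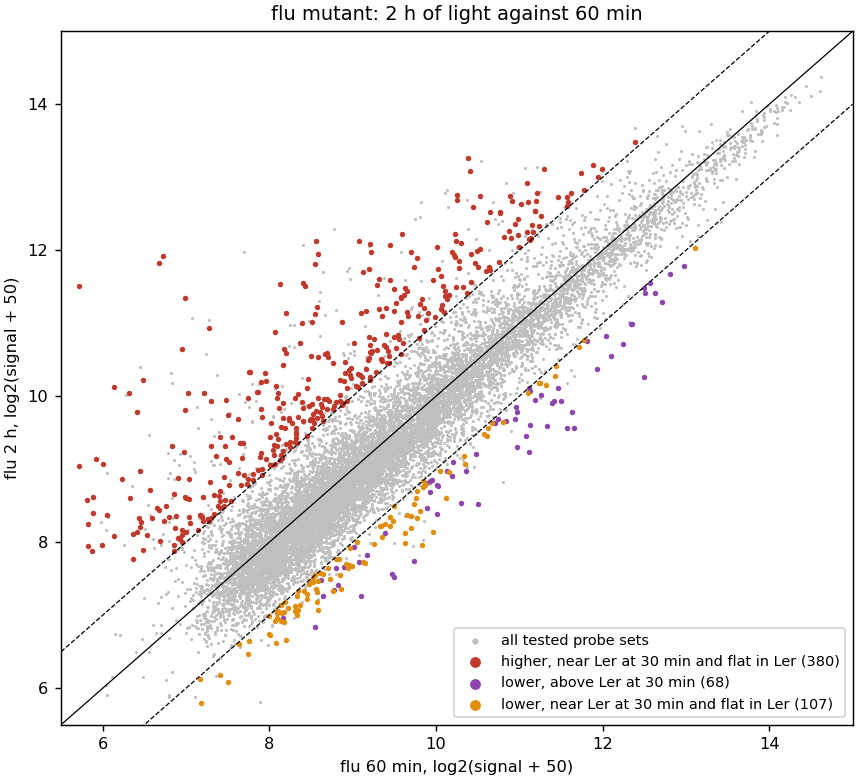
Each point is a probe set, with log2(signal + 50) in flu at 60 min on the horizontal axis and in flu at 2 h on the vertical axis, 1 array each; the solid line marks equal values and the dashed lines a 2-fold difference. Red points are the 380 higher probe sets that were near Ler at 30 min and flat in Ler, purple the 68 lower ones that were above Ler at 30 min and orange the 107 lower ones that were near Ler at 30 min and flat in Ler, and points reach farther above the upper dashed line than below the lower one.

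The other 4 arrays show where the changed probe sets stood at 30 min and what they did in Ler. Of the 572 higher probe sets 380 (66.4%) were less than 1.5-fold apart between flu and Ler at 30 min and also changed less than 1.5-fold in Ler over the same hour, which 83.5% of all probe sets did. Their median signal was 1141 in flu at 2 h and 326 in flu at 60 min, beside 249 in Ler at 2 h and 266 in Ler at 60 min. These conditions leave out the step between 30 and 60 min, so they do not separate genes that started in the second hour from genes already higher by 60 min. In flu, AT5G51440 differed by 3.04 between 60 and 30 min and by 2.62 between 2 h and 60 min, and AT2G29500 by 2.51 and 3.56, steps that share the 60 min array. At 30 min 11 of the 572 (1.92%) had stood at least 2-fold above Ler at 30 min, where 2.98% of all probe sets did, so the share was near the background, and 12 (2.1%) had stood at least 2-fold below Ler, against 0.413% of all. Of the lower set 68 of the 240 probe sets (28.3%) had stood at least 2-fold above Ler at 30 min. They are 17.5% of the 389 probe sets that were 2-fold above Ler at 30 min, where 1.84% of all compared probe sets were lower. Of the 389 probe sets 2.83% were higher, against 4.38% of all. The other 310 (79.7%) stayed within 2-fold between 60 min and 2 h in flu, so this group was past 2-fold downward more often than the background.

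The 5 named genes with the largest increases had signals under 185 on every array except flu at 2 h. They thus entered the comparison through the array where they were high. Probe sets that stand for no named gene are not ranked here, and some differed by more. Among all compared probe sets, ordered from lowest to highest, AT1G10585 stood at 99.98% and EXO, the lowest named gene, at 0.09%. AT1G10585 had signals of 38.6, 76.8 and 2545 in flu and 44.6, 161 and 135 in Ler, always given in the order of the sampling times, and its difference over the second hour was 4.36 in flu and -0.19 in Ler. AT2G38240 followed with 4.27, on signals of 64.4, 158 and 3972 in flu and 162, 178 and 162 in Ler. Neither locus has a name beyond its number in the annotation used, and both were high on the flu array of 2 h alone. UGT76E12, a UDP-glucosyltransferase, had 1.40, 20.5 and 1065 in flu against 2.54, 14.5 and 5.25 in Ler, a difference of 3.98. BSMT1, a methyltransferase of salicylate and benzoate that forms the volatile methyl esters, had 7.98, 37.1 and 1302 in flu and 5.06, 5.89 and 40.7 in Ler, a difference of 3.96. CML39 (AT1G76640), of the calmodulin-like calcium sensors, differed by 3.74, with 4.13, 29.5 and 1009 in flu and 11.3, 4.66 and 9.04 in Ler. For UGT76E12, BSMT1 and CML39 the size depends on the offset of 50, because signals at 60 min were between 20.5 and 37.1.

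The rest of the 15 largest increases were AT1G66760 (3.69), AT1G53540 (3.67), AT2G29500 (3.56), AT1G66850 (3.49), AT2G21640 (3.36), AT1G76470 (2.73), AT2G41730 (2.70), AT5G05600 (2.68), ROF2 (2.66) and AT5G57150 (2.65). They were chosen among 3578 named genes whose brightest array reached 591, the 75th percentile of all values. AT5G05600, ROF2 and AT2G41730 had already reached 813, 843 and 1069.7 in flu at 60 min. AT5G05600 had 200.4, 813 and 5465 in flu and 108, 242 and 191 in Ler. AT5G57150 had a single late step, with 272, 331 and 2333 in flu and 269, 224 and 234 in Ler. The probe set of AT2G41730 is of a type that can also bind related transcripts, so its signal may include them.

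**Figure D2:**
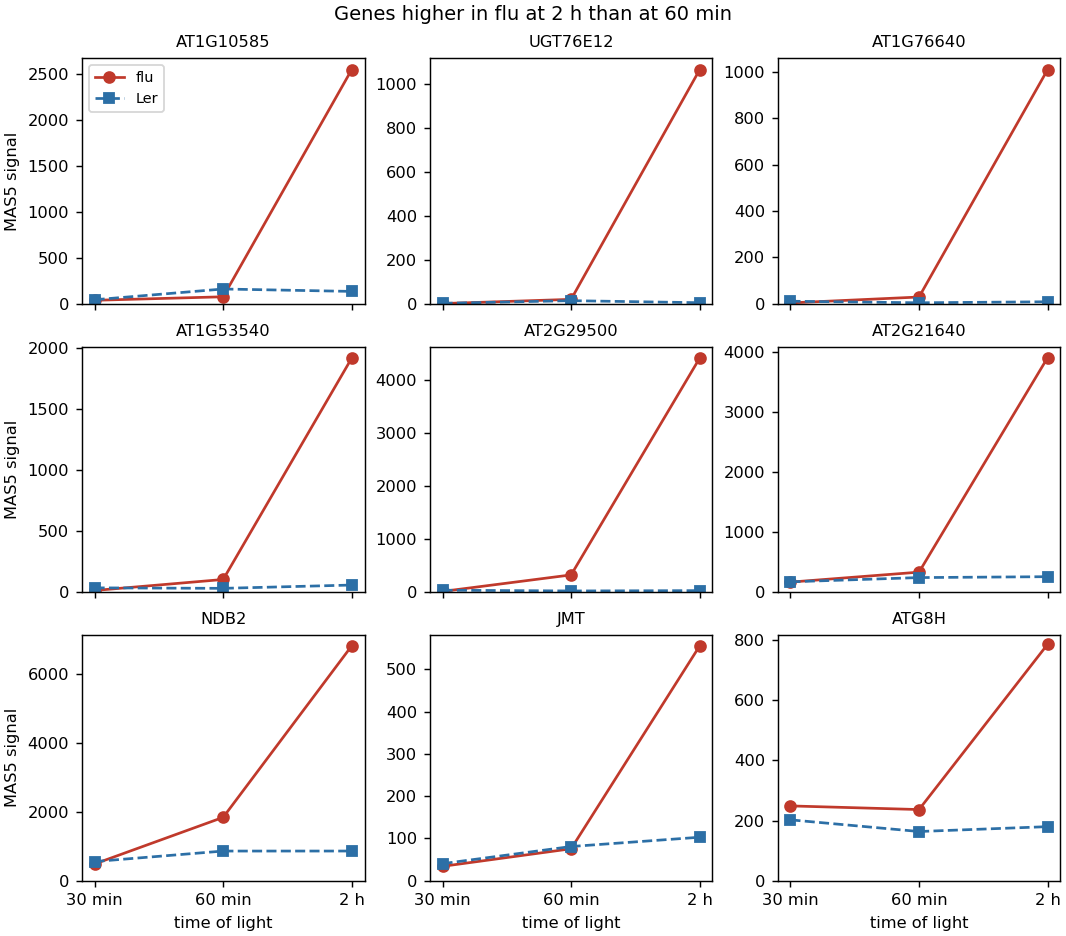
MAS5 signal on a linear axis from 0 (each panel with its own range) against time of light for 9 genes; red circles are flu and blue squares Ler, 1 array per point. In each panel the flu array of 2 h is the highest point, at 2545 for AT1G10585 and 4418 for AT2G29500, and the Ler points lie between 2.54 and 862.

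Chaperone genes were among those with the largest differences. Of 6 small heat shock protein genes compared (8 are on the array), listed by locus number from general knowledge of the family, 3 were higher and 0 lower, where 3.64% of named genes were higher. The list median was 1.55 in flu and 0.06 in Ler, beside -0.12 and 0.00 for all named genes. AT1G53540 had 14.9, 105 and 1916 in flu and 36.3, 32.3 and 59.2 in Ler. AT2G29500 had 16.4, 328 and 4418 in flu, with 39.3, 25.1 and 31.5 in Ler. AT5G51440 had 43.9, 724 and 4710.5 in flu and 16.3, 112 and 82.8 in Ler, a difference of 2.62 over the second hour. All 3 were low on every Ler array and on the flu array of 30 min. AT1G53540 and AT5G37670 reached 185 on the flu array of 2 h alone. The members that were not past 2-fold differed by 0.48 (AT5G37670), -0.21 (AT5G54660) and -0.59 (AT4G21870).

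A list drawn up for HSP70, HSP90, HSP100 and co-chaperones had 8 genes compared, of which 3 were higher and 0 lower. None of the 8 was an HSP90 or HSP100 gene, and plastid Cpn60 chaperonin genes were among them. Of all named genes 3.64% were higher and 1.46% lower. The list median was 0.95 in flu and 0.21 in Ler. ROF2 (AT5G48570), a heat-inducible immunophilin of the FKBP family, had 47.2, 843 and 5577 in flu against 45.2, 99.5 and 247 in Ler. Its Ler difference of 0.99 was just short of 2-fold. Hop3, a co-chaperone that links HSP70 to HSP90, had 4.05, 182 and 1016 in flu and 30.7, 33.6 and 21.6 in Ler, a difference of 2.20, and it entered the comparison through the flu array of 2 h alone. AT3G09440, an HSP70 gene by its place in the list, was bright on all arrays, with 1859, 5304 and 13049 in flu and 2089.7, 4116 and 6299 in Ler. Its signal was higher at each later time in both genotypes, and the second hour added 1.29 in flu and 0.61 in Ler. Hsp70-2 differed by 0.97, just under 2-fold. The chaperonin genes of the plastid Cpn60 beta type stood at 0.28, 0.24 and -0.72 for Cpn60beta2, Cpn60beta3 and Cpn60beta4.

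Genes listed for mitochondrial stress and alternative respiration were 3 higher and 0 lower of 5 compared, against 3.64% and 1.46% of all named genes. The list median was 1.86 in flu and -0.22 in Ler. AT2G21640 and AT2G41730, 2 of the 3, are listed by locus number from general knowledge and carry no name in the annotation used. NDB2, an external NAD(P)H dehydrogenase that feeds the alternative respiratory chain, had 487, 1840.4 and 6819 in flu, while Ler had 557, 861 and 862. AT2G21640 had 169, 335 and 3899 in flu against 174, 245 and 259 in Ler. AT2G41730 had 209.5, 1069.7 and 7222 in flu and 289.7, 546 and 219 in Ler, where its difference over the second hour was -1.15. The 2 h array was the highest of the 6 for each of these 3 genes. AT5G09570 and NDB1 differed by 0.27 and -0.54. Without a filter on dim probe sets the list median was 0.63.

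Detoxification genes split within their families. The products of UDP-glycosyltransferase genes attach sugars to hormones, flavonoids and foreign compounds. Of 23 such genes 6 were higher and 0 lower (median 0.29 in flu, -0.22 in Ler), against 3.64% and 1.46% of all named genes. The array holds 51 such genes, and of the 23 compared 4 reached 185 on the flu array of 2 h alone, among them UGT76E12, UGT73B4 and UGT73C1, so the count and the median rest partly on the filter. The 6 were UGT76E12 (3.98), UGT73B4 (2.42), UGT73C1 (1.73), UGT76E11 (1.64), UGT73B5 (1.58) and UGT87A2. By the group in their names, these fall in the clades 73, 76 and 87. UGT73B5 was already higher at 60 min than at 30 min, with 40.9, 442 and 1423 in flu against 54.4, 52.2 and 4.80 in Ler. UGT87A2 had 638, 865 and 2533 in flu and 826, 780.0 and 616 in Ler. UGT73B4 reached 254 at 2 h and was at 21.9 or less on the other arrays, so its size depends on the offset. The other 17 genes lay between -0.44 and 0.95.

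Of 12 glutathione S-transferase genes on the array 6 were compared, all of the tau class. The 2 that were higher reached 185 on the flu array of 2 h alone and had to differ to be compared, so their count supports nothing about the family. GSTU25 had 38.0, 60.2 and 545 in flu and 94.2, 63.9 and 45.6 in Ler (2.43), and GSTU22 had 34.5, 60.9 and 276 in flu and 69.3, 21.2 and 8.43 in Ler (1.56). The brightest member, GSTU20, did not change by 2-fold, with 7217 in flu at 2 h and 6712 at 60 min. Of 9 cytochrome P450 genes 0 were past 2-fold, in a range of -0.36 to 0.48, with CYP71B23 at 0.48 and CYP71B35 at -0.36. The 5 antioxidant genes also had 0 past 2-fold, from the thylakoid ascorbate peroxidase TAPX (-0.46) to the glutathione reductase GR1 (0.60).

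**Figure D3:**
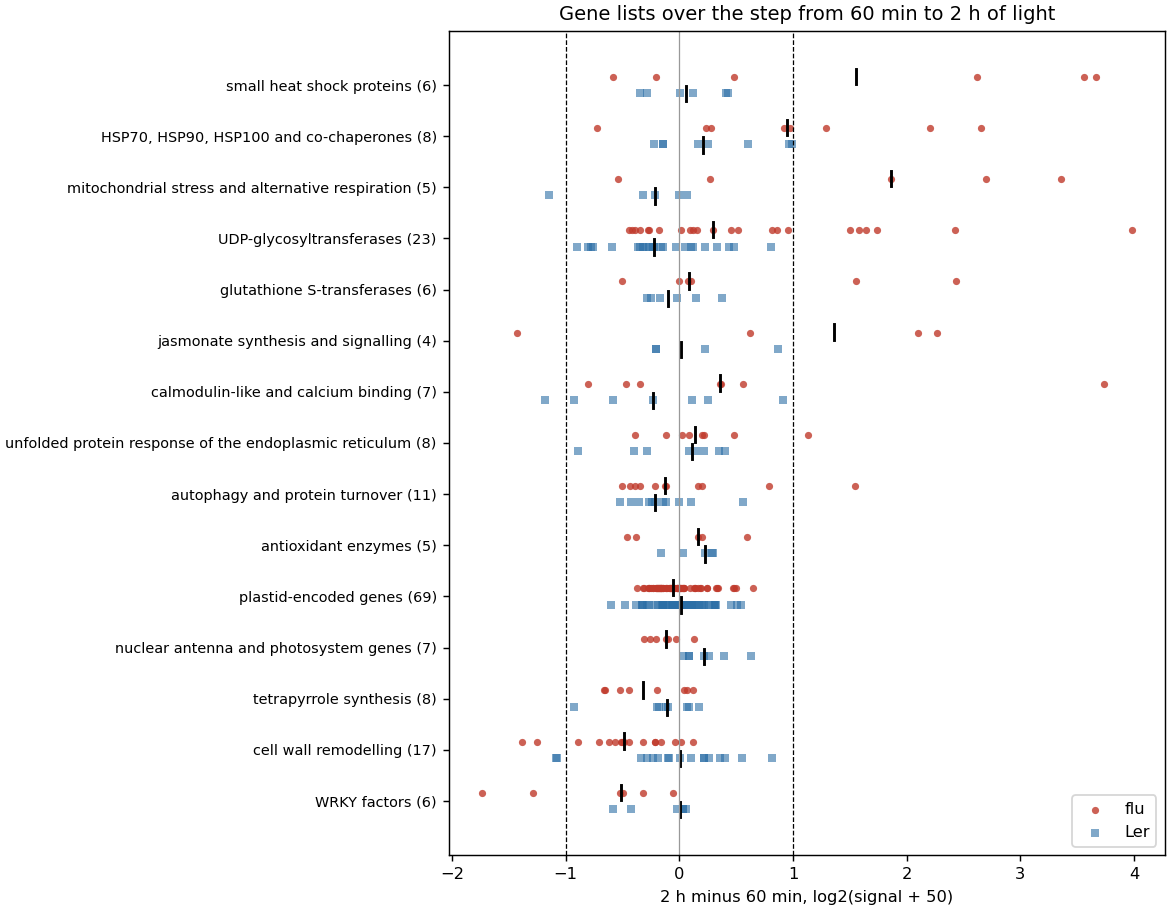
Difference between 2 h and 60 min of light, as log2(signal + 50), for the compared genes of 15 lists (number of genes in brackets); red circles are flu and blue squares Ler, black bars are medians, dashed lines mark 2-fold. The chaperone and mitochondrial lists have flu medians of 0.95 to 1.86, and the WRKY list has the lowest flu median at -0.51. The jasmonate flu median of 1.36 rests partly on 2 genes that were compared only because they were high in flu at 2 h. It becomes -0.41 under the stricter filter on dim genes, so it supports nothing about that list.

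Jasmonate genes moved in both directions. Of 4 compared, 2 were higher and 1 was lower, against 3.64% and 1.46% of all named genes. The median of 1.36 in flu (0.01 in Ler) became -0.41 when only the genes reaching 591 were kept. Both higher genes reached 185 on the flu array of 2 h alone and had to be high there to be compared. The count of higher genes thus supports nothing about the list. JMT, which methylates jasmonate, had 34.1, 75.6 and 556 in flu and 40.4, 81.0 and 103 in Ler (2.27). JRG21, named as a jasmonate-regulated gene, had 29.3, 60.3 and 422 in flu and 17.4, 1.51 and 43.9 in Ler. OPCL1, an acyl-CoA ligase for jasmonate precursors, was higher by 0.62. ORA47, an AP2-type factor that switches on jasmonate synthesis genes, had its highest signal at 60 min, with 385, 1359 and 473 in flu and 175, 119 and 96.2 in Ler, and it differed by -1.43. For the regulator the 2 h array was thus lower than the 60 min array, while for the 2 other called genes it was higher. In the salicylate list GRX480, a glutaredoxin of salicylate signalling, stood at 0.57 and SAG101, a lipase-like defence protein, at -0.33, both short of 2-fold.

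WRKY transcription factors, which bind promoters of defence genes, had the lowest median of the lists plotted by gene. Of 6 WRKY factors compared, 0 were higher and 2 lower (1.46% of named genes were lower), and all 6 differences were negative, as were 63.5% of those of all named genes, with a median of -0.51 in flu and 0.01 in Ler. WRKY53, a factor in senescence and defence, had 2275, 2535 and 725 in flu and 245, 209 and 123 in Ler, and differed by -1.74. WRKY22, which acts in defence signalling and dark-induced senescence, had 658, 1123 and 431 in flu and 155, 125 and 133 in Ler (-1.29). Both were highest in flu at 60 min, and at 2 h both were still above every Ler array. WRKY6 differed by -0.50. STZ, a zinc finger repressor, stayed high, with 6741, 8279 and 6607 in flu and 308, 283 and 267 in Ler (-0.32). Of the calmodulin-like genes, 1 of 7 was higher, against 3.64% of all named genes. This was CML39, which reached 185 on the flu array of 2 h alone and had to be high there to be compared. The count thus supports nothing about the family. CML37 and CML38 had differences of 0.56 and 0.36. PUB43 was the only one of 7 U-box ubiquitin ligases past 2-fold, at 1.14, and PUB23 had -0.91, with 0.95 in Ler.

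Beyond the WRKY factors, the lower genes that had stood above Ler at 30 min came from several groups. EXO (EXORDIUM), an extracellular protein of brassinosteroid-promoted growth, had 3831, 3124 and 831 in flu and 1605, 904 and 1456 in Ler, a difference of -1.85 in flu and 0.66 in Ler. At 2 h its flu signal lay below the Ler signal, and at 30 min and 60 min above it. DLAH, a DAD1-like lipid acylhydrolase, had 1061, 1954 and 581 in flu and 87.0, 50.5 and 57.7 in Ler (-1.67). ATPMEPCRB, a pectin methylesterase, had 1240.5, 1922 and 775 in flu and 153, 269.7 and 334 in Ler (-1.26). AT2G26190 had 2244, 4336 and 1444 in flu and 391, 371 and 527 in Ler, and AT2G39650 had 2394, 2679.9 and 924 in flu and 247, 222 and 251 in Ler. Except for EXO, the 2 h signals of these genes remained above those of all Ler arrays. AT3G15530 came back to the Ler level, with 2887, 2854 and 930.1 in flu and 1026, 789 and 949.9 in Ler. The other 2 of the 8 most negative genes in this set were AT1G27820 (-1.83), whose probe set can bind related transcripts, and AT1G14480 (-1.63). As a whole the 68 probe sets had a median signal of 677 in flu at 2 h and 1849 in flu at 60 min, beside 170.5 in Ler at 2 h and 174 in Ler at 60 min.

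**Figure D4:**
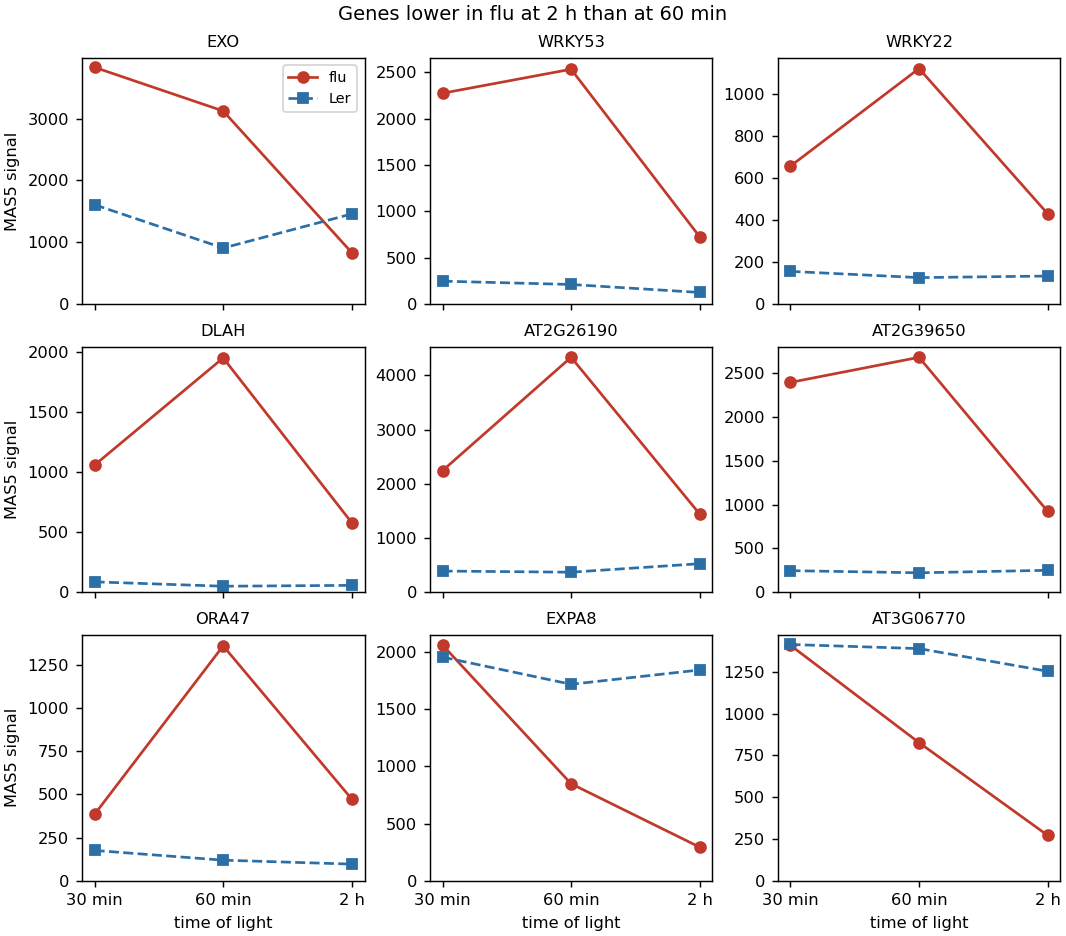
MAS5 signal on a linear axis from 0 (each panel with its own range) against time of light for 9 genes; red circles are flu and blue squares Ler, 1 array per point. WRKY53, WRKY22, DLAH and ORA47 are highest in flu at 60 min and lower at 2 h, while EXPA8 and AT3G06770 start at the Ler level and lie below it at 2 h.

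A further 107 of the 240 lower probe sets (44.6%) were less than 1.5-fold apart from Ler at 30 min and changed less than 1.5-fold in Ler, against 83.5% of all probe sets, with limits set after the values had been seen. Some of them were already lower at 60 min. Their median signal was 151 in flu at 2 h and 411 in flu at 60 min, beside 438 in Ler at 2 h and 397 in Ler at 60 min. EXPA8, an expansin that loosens cell walls, had 2059.7, 848 and 293 in flu and 1954, 1717 and 1842 in Ler (-1.39). AT3G06770 had 1409, 826 and 272 in flu and 1414, 1389 and 1253 in Ler (-1.45), and AT1G54820 had 488, 330.1 and 95.1 in flu against 406, 488 and 747 in Ler (-1.39). These 3 were lower at each later time in flu, and EXPA8 differed by -1.23 between 60 and 30 min already. AT1G67750 (933, 739 and 230.0 in flu and 1138, 722 and 1051 in Ler), AT1G11700 (-1.51) and AT5G44020 (-1.39) completed the 15 most negative genes together with AT1G30250. AT1G11700 and AT5G44020 were already more than 1.5-fold below Ler at 30 min. AT1G30250 was lower in both genotypes, with 1485, 872 and 212 in flu and 1615, 1089 and 207 in Ler.

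Among 17 genes of cell wall remodelling 0 were higher and 2 lower, EXPA8 and ATPMEPCRB, against 3.64% and 1.46% of all named genes. The list median was -0.48 in flu and 0.00 in Ler. Of the 17 differences 15 were negative, as were 63.5% of those of all named genes. The lists of growth hormones had 0 genes past 2-fold. RR16, a cytokinin response regulator, had 1237, 490.4 and 224 in flu and 1106, 658 and 362 in Ler, so it was lower at each later time in both. ARR15 differed by -0.48. Of the auxin response genes GH3.3 stood at 0.65 and IAA29 at -0.59.

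Photosynthesis and pigment genes stayed within 2-fold in this hour. Of 69 plastid-encoded genes compared 0 were past 2-fold, in a range of -0.37 to 0.65 with a median of -0.06, and rps18 (0.65) and ndhE (0.50) were the most changed. The 7 nuclear genes of the antenna and photosystems ranged from -0.31 to 0.13 in flu, with a median of -0.11, against 0.22 in Ler. LHCB4.2, of the minor antenna protein CP29, had 6059, 4835 and 4036 in flu and 7192, 7001 and 10865 in Ler, and LHCB4.1 differed by -0.31. Of 6 genes of the Calvin cycle and starch 0 were past 2-fold, with APL3 at 0.55 and DPE1 at -0.46. The 8 tetrapyrrole genes had a median of -0.32 in flu and -0.11 in Ler, and 0 were past 2-fold. CHLM, the methyltransferase of magnesium protoporphyrin, had 5712, 5596 and 3511 in flu and 7428, 6089 and 6467 in Ler, and PORB, which reduces protochlorophyllide in the light, had 10332, 8135 and 5137 in flu and 10506, 10584 and 9207 in Ler. Both were lower in flu at 2 h than on any other array, by -0.66 and -0.66 over the second hour.

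Other lists held single changed genes or none, where 3.64% of all named genes were higher and 1.46% lower. Of 11 genes of autophagy and protein turnover ATG8H was higher by 1.54, with 248, 236 and 785 in flu and 202, 163 and 179.6 in Ler, and 0 were lower. DER1, a derlin of the endoplasmic reticulum, was the only one of 8 genes of the unfolded protein response past 2-fold (1.14, with 1564 in flu at 2 h and 685 at 60 min). BZIP60, a transcription factor of that response, differed by 0.19 on signals of 6023 in flu at 2 h and 5255 at 60 min. The 6 listed genes of abscisic acid, drought and cold had 0 past 2-fold, with COR15A at 0.78 and AT2G46140 at 0.66. Outside this list LTI30, named as a low-temperature-induced gene, was higher by 1.16 in flu and differed by -0.98 in Ler. In the clock and light list of 4 genes, GI, HYH and DFR stood at 0.22, 0.45 and 0.66 in flu, while DFR was past 2-fold in Ler (1.21). The remaining member, CHI at 0.70, is locus AT2G43570, a putative chitinase rather than a clock or light gene. Further lists with 0 past 2-fold in flu were NAC factors (NAC014 at 0.58), C2H2 zinc fingers (STZ, and GIS at -0.68), ethylene (EIN3 at -0.14), nuclear genes of plastid gene expression (PPR336 at 0.50, PPR596 at 0.08), lipid transfer and wax (AT4G13840 at -0.11) and housekeeping (PEX4 at 0.09, AP2M at 0.03). The lists for heat shock factors, ERF and DREB factors, MYB factors and ribosomal proteins matched 0 named genes, so nothing is said of these families. Members can stand in other lists, as rps18 does among the plastid-encoded genes and ORA47 among the jasmonate genes.

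The same hour in Ler was set beside that in flu, with no test of the difference since each group is 1 array. Of the 572 higher in flu, 458 (80.1%) changed less than 1.5-fold in Ler, fewer than the 92.5% of all probe sets. Of the 572, 5 were also higher in Ler and 18 were lower there, and of the 240 lower in flu, 16 were also lower in Ler and 7 higher. In Ler 0.398% of all probe sets were higher and 1.00% lower. The plot of both steps shows the flu values spread along the vertical axis, with AT1G30250 lower in both genotypes.

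**Figure D5:**
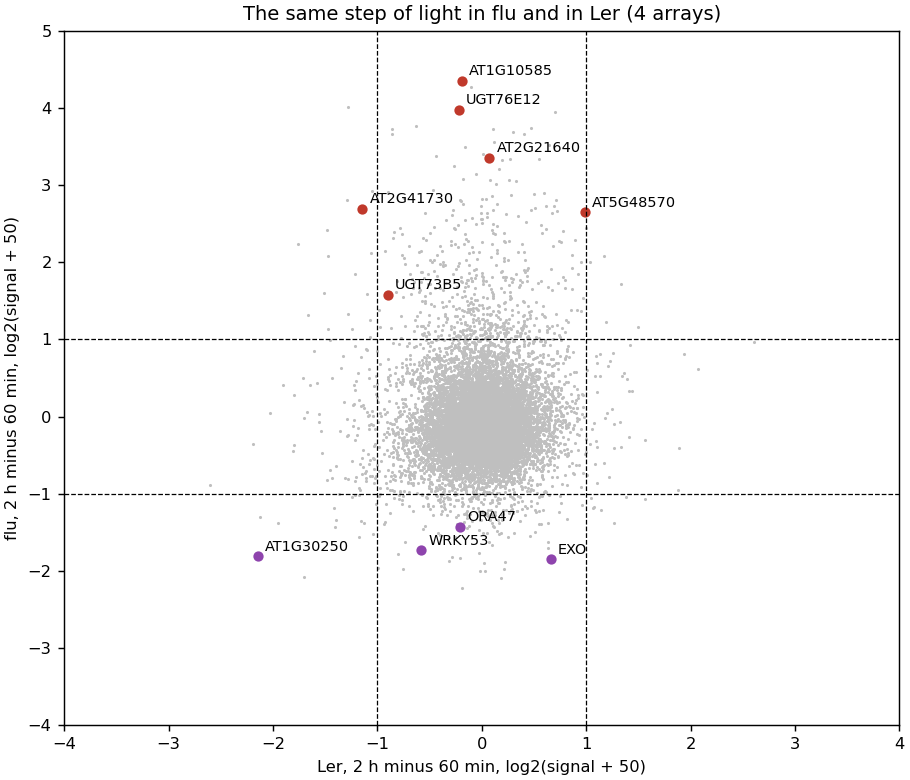
Each point is a probe set, with the difference between 2 h and 60 min of light in Ler on the horizontal and in flu on the vertical axis, as log2(signal + 50); dashed lines mark 2-fold and coloured points are named genes (red higher, purple lower in flu). AT1G10585 stands at 4.36 in flu and -0.19 in Ler, and AT2G41730 at 2.70 in flu and -1.15 in Ler.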

How the data were processed

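Leaf RNA of 6 samples, 1 per genotype and time, was hybridised to ATH1 arrays. The deposited values are MAS5 intensity values, 1 per probe set, per the submitters' processing notes, which give no version; background correction and target scaling are not given in the sources used here. The 2% trimmed mean of each deposited array was rescaled to 500. An offset of 50 was added before log2, which understates changes of dim probe sets, decreases more than increases. On simulated data for flu at 2 h against 60 min (11125 probe sets), log2 changes of 1.5 passed 2-fold in 97 of 100 increases and 72 of 100 decreases. Changes of 2 passed in 100 and 92, so counts of lower probe sets are the less complete. Of 10925 unchanged probe sets 0 passed. The simulation left out the dimmer probe sets and used noise of an assumed size, so this 0 gives no rate of false calls for these arrays. Array control probe sets (64) were left out. The limit of 185 is the rounded median of all values.

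Genes were named through the platform annotation, and symbols updated from RefSeq (TAIR10.1, 13436 matched): 13513 probe sets had 1 gene, 503 several and 8794 none. The brightest probe set stood for a gene, and of 58 genes with several probe sets 1 was called by its brightest and not by its other (AT5G54130, -1.02 and -0.81). Named are the 15 highest and 15 lowest genes reaching 591, the 8 largest among those higher and near Ler at 30 min (and flat in Ler) and the 8 among those lower and above Ler at 30 min, and per list up to 6 genes past 2-fold, or the 2 most changed; all others were chosen after their values were seen. Members and the 33 lists were chosen with earlier results of these data known. The list patterns were edited after list results had been seen, to remove cyclophilins and other wrong matches from the P450 list and plastid-encoded genes from the nuclear ones; 0 removed genes were past 2-fold. With 1 array per group no test was made. The offset, scaling, filter and fold limit were varied. Python 3.11.15, pandas 2.3.3 and numpy 2.4.6 were used.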

Additional observations from a re-analysis of the deposited data

Results flagged for a closer look

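In 4 of the 80 genes named by rule the second hour of light moved flu and Ler in opposite directions by at least 1.5-fold each, a limit chosen for this work. The 80 include the most extreme flu differences, and the share of all compared genes past this limit was not taken. With 1 array each, the difference between the genotypes was not tested. AT2G41730 differed by 2.70 in flu and -1.15 in Ler, a gap of 3.85 (flu minus Ler, log2). EXO differed by -1.85 in flu and 0.66 in Ler, a gap of -2.51. UGT76E11 differed by 1.64 in flu and -0.59 in Ler, where it only just met the limit, a gap of 2.24. Its signals were 908.5 in flu at 2 h and 257 in flu at 60 min, and 365 in Ler at 2 h and 576 in Ler at 60 min. UGT73B5 differed by 1.58 in flu and -0.90 in Ler, a gap of 2.48, but its Ler signals were only 4.80 at 2 h and 52.2 at 60 min. Outside the rule the same limit was met by, among others, SBT3.5 (2.44 in flu, -0.78 in Ler), LTI30 (1.16, -0.98), THI2.1 (-1.06, 1.05), ACT11 (-1.12, 0.76) and PUB23 (-0.91, 0.95). It was also met by PUB19 (0.63 in flu, -1.35 in Ler) and EXPB1 (-0.89, 0.81). PUB23 had Ler signals of 56.6 at 2 h and 5.09 at 60 min.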

How the results depend on the processing

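No paired analysis was possible because each group has 1 array. At a 1.5-fold limit there were 1151 higher and 1205 lower probe sets in flu, 445 and 529 in Ler, 824 higher and near Ler at 30 min, 160 lower and above Ler at 30 min, and 790 lower and near Ler at 30 min. At 4-fold these counts were 151 and 5 in flu, 2 and 5 in Ler, 84, 4 and 0. With an offset of 100 the lower count in flu was 150, the Ler counts were 34 and 74, and 57 were lower and near Ler at 30 min. With an offset of 16 the Ler counts were 112 and 205, and 161 were lower and near Ler. Keeping only probe sets reaching 591 gave 155 lower in flu, 27 higher in Ler and 52 lower and near Ler, and no filter gave 145 higher in Ler and 170 lower and near Ler. Subtracting the median left 65 lower and near Ler, a set whose limits were chosen after seeing the data. Higher probe sets were 64.2% of those past 2-fold in flu with an offset of 16, 76.6% with 100, 80.7% with the median subtracted and 48.9% at 1.5-fold, against 70.4%. The jasmonate median turned to -0.41 with the 591 filter, which left 2 genes. Of 620 single gene values under the alternatives 0 reversed and 8 moved by over 1.5-fold: UGT76E12 (4.89 with an offset of 16, 3.27 with 100), BSMT1 (4.63, 3.35), CML39 (4.49, 3.10) and UGT73B4 (3.57, 1.73). The median of the small heat shock protein list was 3.09 with the 591 filter, and that of the mitochondrial list 2.70 with it and 0.63 with no filter. The causes were not tested, apart from the fewer genes that a stricter filter leaves. Without replicates, the spread between plants is unknown.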

Other observations

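Further named genes past 2-fold lay outside the lists and were chosen after their values were seen. Fes1A, a factor that protects cytosolic HSP70, was higher in flu at 2 h by 1.81, and Fes1B by 1.33. The methionine sulfoxide reductases MSRB9 and MSRB6, which repair oxidised methionine in proteins, were higher by 2.54 and 2.00. MSRB9 differed by -0.35 in Ler, while MSRB6 differed by 0.95 there and had 499.8 in flu and 656 in Ler at 2 h. Also higher was the monodehydroascorbate reductase ATMDAR2, by 1.54. CCR2 was higher by 2.27 and the subtilase SBT3.5 by 2.44 (-0.78 in Ler). The trichome birefringence-like genes, which act in cell wall acetylation, split, with TBL26 (2.57) and TBL37 (1.63) higher and TBL45 (-1.35) and TBL36 (-1.22) lower among 12 compared. Also lower were CSLC04 (-1.28), a glucan synthase of the cell wall, BZIP61 (-1.22) and the actin gene ACT11 (-1.12, with 0.76 in Ler). The flu signals of BZIP61 were only 9.07 at 2 h and 88.0 at 60 min, both under 185, so its size depends on the offset. Of 31 symbol families with at least 5 genes compared, 22 had 0 genes past 2-fold.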
